A study of Rattus norvegicus and Heterocephalus glaber with 6 samples.

Results

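The genes described here are 10 markers of Kupffer cells and macrophages: Cd68, Cd163, Marco, Clec4f, Vsig4, Csf1r, Emr1, Cd14, Mrc1 and Cd5l. They were found by symbol, without regard to case, among the 22549 rows of each rat table and the 734 rows of each naked mole rat table. The rat tables held all 10, each on a single row that overlapped no other row, and 8 of them reached a mean of 1 FPKM (fragments scaled to transcript length and to the mapped fragments of the library). Among the 567 symbols of the naked mole rat tables, 0 of the 10 were found, so these genes were not analysed in that species.

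Kupffer cells are the resident macrophages of the liver. They sit in the sinusoids, where they take up particles, aged red cells and bacterial products from portal blood through a set of surface receptors, and they depend on signals through the receptor for colony-stimulating factor 1. In bulk liver RNA, transcripts that other liver cells do not make give a measure of these cells, in which more cells of a type and more RNA per cell cannot be told apart. Not all the markers meet this condition, as described below for Mrc1 and Cd14.

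The study kept naked mole rats, a burrowing rodent that tolerates low oxygen, and rats at 8% oxygen for 8 hours and sequenced polyadenylated liver RNA, with 3 libraries per species. The labels give no strain, sex or age, and nothing in them says whether the 3 rat libraries came from separate animals. All 6 libraries were hypoxic and normoxic livers were not analysed here, which leaves the effect of low oxygen unmeasured. What the data allow is a description of the level of each marker in hypoxic rat liver and of the order of the libraries labelled replicate 1, 2 and 3, called rat 1, rat 2 and rat 3 below. With 1 library on each side, a difference between rats has no replicate check and no test.

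The libraries were alike in overall terms. Total FPKM per rat library ranged between 527133 and 557187, and 9866 to 10036 rows reached 1 FPKM. Counts behind the values are not in the tables. The commonest ratio between libraries among rows under 0.1 FPKM put the relative depth of rat 1 at 1.05 against rat 2 and at 0.983 against rat 3. Across the 9994 rows that averaged 1 FPKM or more and had a value in every rat, Pearson's r between libraries on log2(FPKM + 1) was 0.984 to 0.986, across genes, which are not independent replicates. The same rows, with values as deposited, serve as the background below. Counts after scaling, with another pseudocount or at another fold have no background share beside them. Of 12 hepatocyte markers with a value in every rat, 12 reached 10 FPKM.

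The upstream sequences of a few markers are shown because macrophage genes are known to be controlled from their promoters by PU.1, a transcription factor of myeloid cells whose sites carry the letters GAGGAA. They are the 250 bases before the annotated start in RefSeq (build GRCr8), written 5′ to 3′ on the strand of the gene. Cd68 (chr10:54882442-54882691, minus strand), which had the commonest order of the libraries among the markers, Cd5l (chr2:175088665-175088914, plus strand), which differed most between rats, and Cd14 (chr18:28611159-28611408, minus strand), which followed another order, have the motif, read on either strand, in capitals. In Clec4f (chr4:117696408-117696657, minus strand), the most abundant marker, the capitals mark a repeat.
Cd68: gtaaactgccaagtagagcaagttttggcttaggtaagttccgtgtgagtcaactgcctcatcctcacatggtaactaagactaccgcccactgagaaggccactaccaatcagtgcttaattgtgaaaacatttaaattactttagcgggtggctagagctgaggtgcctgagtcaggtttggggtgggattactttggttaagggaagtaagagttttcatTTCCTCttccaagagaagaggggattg
Cd5l: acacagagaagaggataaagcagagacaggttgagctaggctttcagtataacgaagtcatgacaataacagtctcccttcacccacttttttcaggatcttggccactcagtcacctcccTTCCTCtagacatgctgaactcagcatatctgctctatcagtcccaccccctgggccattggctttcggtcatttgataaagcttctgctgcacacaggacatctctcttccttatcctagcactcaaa
Cd14: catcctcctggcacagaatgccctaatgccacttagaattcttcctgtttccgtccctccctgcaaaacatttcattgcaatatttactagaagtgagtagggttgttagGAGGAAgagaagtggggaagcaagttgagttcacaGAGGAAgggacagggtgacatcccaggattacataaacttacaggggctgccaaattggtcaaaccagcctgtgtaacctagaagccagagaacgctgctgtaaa
Clec4f: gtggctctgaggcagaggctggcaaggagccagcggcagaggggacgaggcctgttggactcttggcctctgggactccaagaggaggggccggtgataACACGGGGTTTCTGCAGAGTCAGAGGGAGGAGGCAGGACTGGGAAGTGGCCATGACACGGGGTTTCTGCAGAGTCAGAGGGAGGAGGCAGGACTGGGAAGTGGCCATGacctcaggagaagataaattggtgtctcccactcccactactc

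GAGGAA, on either strand, occurred in 7 of the 10 markers' promoters, taken from 250 bases before to 50 bases after the start: Cd68, Marco, Csf1r, Emr1, Cd14, Mrc1 and Cd5l. It occurred in 27.6% of all 33469 rat promoters in that reference. In Cd14, Csf1r and Mrc1 it occurred at 2 places within the 250 upstream bases. CACGTG, the E-box, occurred in 0 of the 10 promoters and in 6.42% of all. TTGCNNAA, a pattern of C/EBP factors, occurred in 1 of the 10, that of Emr1 (Adgre1 in RefSeq), and in 10.6% of all. Both strands were searched for each motif and overlaps between motifs were not removed. A match is a string of letters and not a measured site, and the markers with and without a match include both high and low levels. The Clec4f upstream stretch holds 54 bases that occur again directly after themselves, at positions 100 and 154 counted from its 5′ end. An exact repeat at least as long was found in 82 of the 33469 upstream stretches, or 0.245%, while the longest repeat in the other 9 markers was 7 to 11 bases.

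The 8 measured markers spanned means of 10.5 to 71.2 FPKM, so every one of them reached 10 FPKM. Rat 3 was the highest library for 7 of the 8, against 33.5% of the background rows. The exception was Cd14, which was highest in rat 1.

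**Figure D1:**
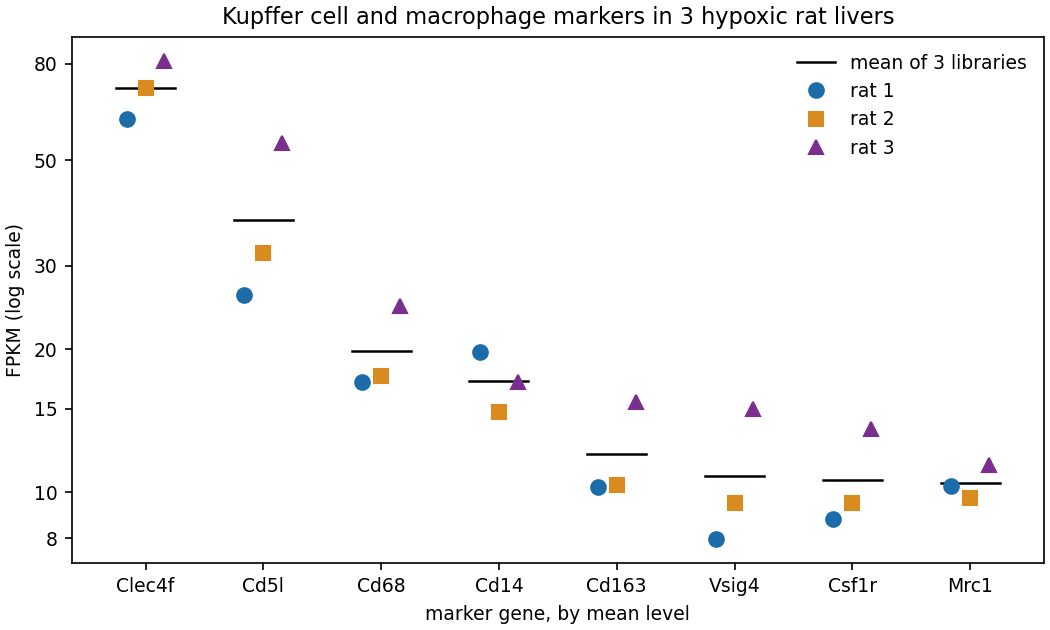
FPKM (log scale) of the 8 measured markers in each rat library, ordered by mean level; points are single libraries and black lines the mean of the 3. Rat 3 is the highest point for all except Cd14, from 11.4 FPKM for Mrc1 to 81.1 FPKM for Clec4f.

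Among the lectin and scavenger receptors, Clec4f, a C-type lectin that in rodent liver marks Kupffer cells, was the most abundant. It stood at 61.2, 71.2 and 81.1 FPKM in rat 1, rat 2 and rat 3, a mean of 71.2 ± 9.97 FPKM (SD, n = 3), above 91.4% of the background rows. The libraries were evenly spaced, with rat 1 lowest and rat 3 highest. Its row lies on chromosome 4 from 117839862 to 117849584, in the coordinates of the deposited tables, whose build is not given in the sources used here.

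Cd68, a lysosomal glycoprotein of macrophages, on chromosome 10 from 56481700 to 56483580, stood at 17.1, 17.6 and 24.7 FPKM in rat 1, rat 2 and rat 3 (19.8 ± 4.26, SD, n = 3). Rat 1 and rat 2 were close together and rat 3 stood above both. Cd163, the receptor that takes up haemoglobin bound to haptoglobin, had the same pattern on chromosome 4 from 160394832 to 160428208, at 10.2, 10.4 and 15.5 FPKM (12.0 ± 2.99, SD, n = 3).

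Mrc1, the mannose receptor, which sinusoidal endothelial cells of the liver also carry, varied least. It stood at 10.3, 9.72 and 11.4 FPKM in rat 1, rat 2 and rat 3 (10.5 ± 0.857, SD, n = 3), on chromosome 17 from 88411264 to 88492622. Its highest library was 1.17 times its lowest. Its SD on log2(FPKM + 1) was 0.11, above that of 35.6% of the background rows.

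Vsig4, the complement receptor of the immunoglobulin family through which Kupffer cells capture particles coated with C3 fragments, varied more widely. It stood at 7.98, 9.50 and 14.98 FPKM in rat 1, rat 2 and rat 3 (10.8 ± 3.68, SD, n = 3), on chromosome X from 83872091 to 83898242. Rat 3 was 1.88 times rat 1, and the SD on log2(FPKM + 1) of 0.43 exceeded that of 95% of the background rows.

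Csf1r, the receptor for colony-stimulating factor 1 and interleukin 34 that macrophages need to survive, stood at 8.78, 9.50 and 13.6 FPKM in rat 1, rat 2 and rat 3 (10.6 ± 2.61, SD, n = 3). Its row lies on chromosome 18 from 57080323 to 57107295. As for Cd68 and Cd163, rat 3 lay apart and the other rats close together.

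Cd5l, a scavenger receptor domain protein that macrophages secrete into plasma, had the widest spread of the 8. It stood at 26.0, 31.9 and 54.3 FPKM in rat 1, rat 2 and rat 3 (37.4 ± 14.9, SD, n = 3), on chromosome 2 from 179383718 to 179394732. Rat 3 was 2.09 times rat 1, and the SD on log2(FPKM + 1) of 0.53 exceeded that of 97.1% of the background rows.

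Cd14, the coreceptor that hands lipopolysaccharide to Toll-like receptor 4 and which hepatocytes can make as well, was the marker that went its own way. It stood at 19.7, 14.8 and 17.0 FPKM in rat 1, rat 2 and rat 3 (17.2 ± 2.47, SD, n = 3), on chromosome 18 from 29374592 to 29376190. Rat 1, the lowest library for 6 of the other markers, was here the highest.

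Marco, a scavenger receptor with a collagen-like stalk, and Emr1, an adhesion G protein-coupled receptor of rodent macrophages named Adgre1 in RefSeq, were listed at 0 FPKM in each of the 3 rats. Both rows lie on sequence outside the assembled chromosomes. Of 831 such rows, 0 were above 0 in any rat, against 73.0% of the 21718 other rows, so these zeros say how the rows are listed and not that the genes are silent.

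The order of the libraries was shared by most of the 8 markers. Clec4f, Cd68, Cd163, Vsig4, Csf1r and Cd5l had the order rat 3, rat 2, rat 1 from highest to lowest, 6 of 8 markers against 19.5% of the background rows. Mrc1 had the order rat 3, rat 1, rat 2 and Cd14 the order rat 1, rat 3, rat 2. By highest library, 1 marker was highest in rat 1, 0 in rat 2 and 7 in rat 3, against 17.5%, 49.0% and 33.5% of the background rows. By lowest library, 6 were lowest in rat 1, 2 in rat 2 and 0 in rat 3, against 48.5%, 22.6% and 28.9%. Rat 1 was the commonest lowest library among the background rows too, whereas rat 2, their commonest highest library, was highest for 0 markers.

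**Figure D2:**
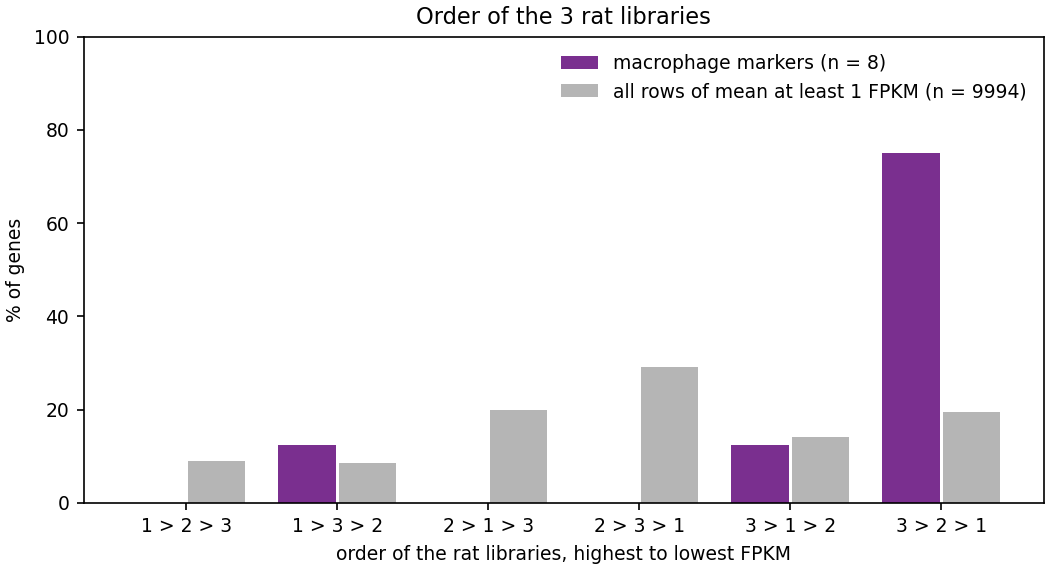
Share of genes (%) with each order of the 3 rat libraries, from the highest to the lowest FPKM, for the 8 measured markers (left bars) and for 9994 rows averaging 1 FPKM or more (right bars). The order 3 > 2 > 1 held for 75% of the markers and 19.5% of all rows; the commonest order of all rows, 2 > 3 > 1 at 29.0%, held for 0 markers.

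As deposited, the lead of rat 3 was larger than the gap between rat 2 and rat 1, an order of sizes that 1 scaling turned round. The median log2(FPKM + 1) difference over the 8 markers was 0.53 for rat 3 minus rat 1 and 0.47 for rat 3 minus rat 2, against 0.061 and -0.046 over the background rows. For rat 2 minus rat 1 it was 0.071, against 0.11 over the background rows. Scaling each library by its median ratio to the others kept rat 3 highest for 7 of 8 markers, but turned the median for rat 2 minus rat 1 to -0.044 and left 3 of 8 in the order rat 3, rat 2, rat 1. Cd68, Cd163 and Csf1r then had rat 1 above rat 2, which leaves Clec4f, Vsig4 and Cd5l with rat 1 lowest. Scaled to the geometric mean of 12 hepatocyte markers, 5 of 8 were highest in rat 3 and Clec4f and Mrc1 were highest in rat 2. The median was then 0.094 for rat 3 minus rat 2 and 0.45 for rat 2 minus rat 1. The factor of rat 2 in that scaling, 0.830, took in Fgb at 8594, 2257 and 8667 FPKM in rat 1, rat 2 and rat 3. Tat stood at 1023, 429 and 1221 FPKM. Pck1 and G6pc were also lowest in rat 2, and their highest library was 2.53 and 2.17 times their lowest. Of the 12 hepatocyte markers, 6 were lowest in rat 2 and 4 were highest in it. With the median over the same 12 genes, a choice made after these values were seen, the factor of rat 2 was 0.968. Then 7 of 8 markers were highest in rat 3, and the medians were 0.45 for rat 3 minus rat 2 and 0.19 for rat 2 minus rat 1. Background values were taken as deposited only, so the scaled counts and medians have none beside them.

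Few of the differences were large. On the log2(FPKM + 1) scale, Vsig4 and Cd5l were at least 1.5-fold higher in rat 3 than in rat 1 and also than in rat 2, which makes 2 of 8 markers in each pair, against 3.06% and 3.19% of the background rows. In these pairs 0 markers were at least 1.5-fold lower in rat 3, against 2.19% and 3.27%. Between rat 2 and rat 1, 0 markers were past 1.5-fold in either direction, against 3.40% higher and 2.40% lower in rat 2. With no pseudocount, Cd163 and Csf1r also passed 1.5-fold between rat 3 and rat 1, at FPKM ratios of 1.51 and 1.55, giving 4 of 8. The share of background rows was not taken without a pseudocount, so this count has none beside it.

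The confidence bounds in the deposited tables express the uncertainty of a value within its own library. For 6 of 8 markers the lower bound in rat 3 lay above the upper bound in rat 1, against 11.3% of the background rows, and for 6 of 8 it lay above that in rat 2, against 7.83%. The 6 were in both cases Clec4f, Cd68, Cd163, Vsig4, Csf1r and Cd5l. The bounds in rat 3 lay below those in rat 1 or in rat 2 for 0 of 8, against 6.24% and 12.5%. Rat 2 lay above rat 1 by this measure for Clec4f and Cd5l, 2 of 8, against 16.4%, and below it for Cd14, 1 of 8, against 5.72%. For Csf1r, as an example, the bounds ran from 12.3 to 14.5 FPKM in rat 3, against 7.82 to 9.59 in rat 1 and 8.48 to 10.4 in rat 2. These bounds have faults: between 10.3% and 10.9% of values above 0 lay outside their own bounds, among them Clec4f in all 3 rats and Cd5l and Cd68 in 1 rat each. This comparison was added after the values were seen.

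Summed over the 8 markers, the level reached 161, 175 and 233 FPKM in rat 1, rat 2 and rat 3, of which Clec4f supplied the most in each. The median SD between rats on log2(FPKM + 1) was 0.30 over the markers, with a range of 0.11 to 0.53, against 0.14 over the background rows. The background starts at a mean of 1 FPKM, whereas the lowest marker mean was 10.5 FPKM. No background at the markers' level was taken, for the SD or for the 1.5-fold and bound shares.

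Macrophage genes outside the 10 markers were highest in rat 3 as well, though not in the same full order. Of 17 further genes of macrophages, 15 had a value in every rat and 13 reached a mean of 1 FPKM. Of these 13, 9 were highest in rat 3, against 33.5% of the background rows. Only 3 of the 13 had the order rat 3, rat 2, rat 1, near the background of 19.5%. Rat 1 was lowest for 5 of the 13, against 48.5%. C1qa, C1qb and C1qc, the chains of complement C1q that macrophages make, stood at 113, 48.0 and 98.4 FPKM in rat 3, against 88.4, 34.3 and 72.6 in rat 1 and 87.4, 30.4 and 71.9 in rat 2. The median difference of rat 3 from the mean of the other rats, on log2(FPKM + 1), was 0.51 over the 8 markers and 0.41 over these 13 genes. Over the background rows it was 0.0092, with a 5th to 95th percentile range of -0.39 to 0.41.

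**Figure D3:**
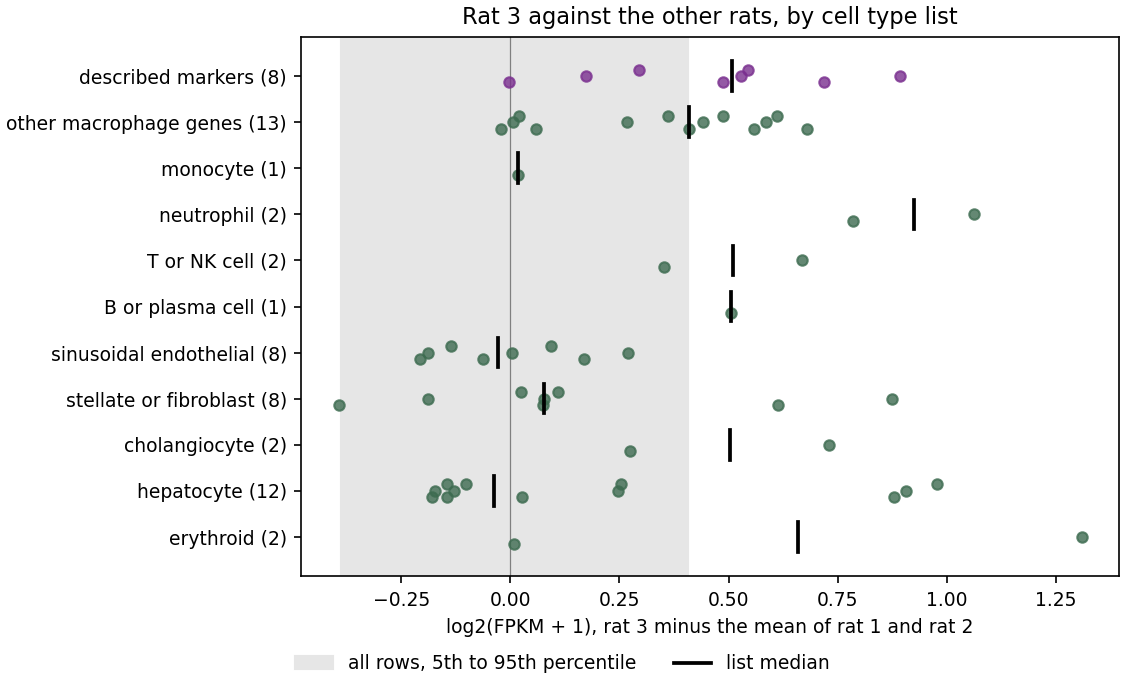
Difference on log2(FPKM + 1) between rat 3 and the mean of rat 1 and rat 2 for each gene averaging 1 FPKM or more, by cell type list (number of genes in parentheses); black ticks are list medians and the grey band the 5th to 95th percentile of 9994 rows (-0.39 to 0.41). The described markers and the other macrophage genes have medians of 0.51 and 0.41, the sinusoidal endothelial, stellate and hepatocyte lists -0.029, 0.076 and -0.037, and the lists of 1 or 2 genes 0.018 (monocyte) to 0.92 (neutrophil).

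Some lists of other cell types had rat 3 highest and others did not, and several short lists had medians close to or above the 0.51 of the markers. The median difference of rat 3 from the mean of the other rats was 0.92 for 2 neutrophil genes, 0.66 for 2 erythroid genes, 0.51 for 2 T or NK cell genes, 0.51 for 1 B or plasma cell gene and 0.50 for 2 bile duct genes. A high value here does not always mean that rat 3 was highest. Both erythroid genes and 1 of the 2 neutrophil genes, S100a8, were highest in rat 2 and lowest in rat 1. For the erythroid genes the median for rat 3 minus rat 2 was -0.28. Of the sinusoidal endothelial genes, which line the same vessels, 2 of 8 were highest in rat 3, against 33.5% of the background rows. The list summed to 100.3, 96.1 and 94.6 FPKM. Of the stellate or fibroblast genes 2 of 8 were highest in rat 3, with sums of 44.3, 33.3 and 43.5 FPKM, and of the hepatocyte genes 4 of 12, with sums of 48984, 45522 and 48668 FPKM in rat 1, rat 2 and rat 3. Both bile duct genes at 1 FPKM or more, Epcam and Krt19, were highest in rat 3, and the list of 5 summed to 11.7, 12.9 and 16.7 FPKM.

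The white blood cell lists summed to less than the 8 markers in every rat, and the neutrophil, monocyte, T or NK and B or plasma cell lists had their lowest sum in rat 1. The neutrophil list of 9 genes with values summed to 2.67, 9.22 and 11.8 FPKM in the same order, with 2 genes at 1 FPKM or more (S100a8 and S100a9) and Elane at 0 in each rat. The monocyte list of 7 summed to 2.97, 3.20 and 3.98 FPKM, with Ccr2 at 0.0526, 0.275 and 0.104 FPKM. The B or plasma cell list of 4 summed to 0.925, 1.99 and 2.44 FPKM and the dendritic cell list of 5 to 1.57, 1.96 and 1.49 FPKM. The 2 erythroid genes, Hbb and Slc4a1, summed to 54.97, 359 and 349 FPKM, above the sum of the 8 markers in rat 2 and rat 3. The part of blood or bile duct cells in the order of the macrophage markers was not tested.

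The T or NK cell list of 11 summed to 10.2, 12.6 and 17.6 FPKM in rat 1, rat 2 and rat 3, and most of it was Cd4. Cd4, which in the rat is carried by macrophages as well as by helper T cells, stood at 6.14, 8.30 and 12.0 FPKM, the order of the Kupffer cell markers. The CD3 chains of the T cell receptor complex, Cd3e, Cd3d and Cd3g, stayed under 1 FPKM in every rat, between 0.10 and 0.704 FPKM, and were highest in rat 2. Other genes of the list were highest in rat 3, among them Prf1, the perforin of cytotoxic cells, at 1.49, 0.858 and 1.75 FPKM, as were Cd8a, Gzmb, Nkg7, Klrb1a and Ncr1, each under 1 FPKM. The part of T and NK cells in the order of the markers was not tested.

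Cd14 sits in the pathway that senses lipopolysaccharide, of which 6 other genes averaged 1 FPKM or more. The order rat 3, rat 2, rat 1 held for 0 of these 6, against 19.5% of the background rows. With so few genes, that count is near the background share. Of these 6, 3 were highest in rat 1, 2 in rat 2 and 1, Irak1, in rat 3, against 17.5%, 49.0% and 33.5% of the background rows. Lbp, the plasma protein that carries lipopolysaccharide to Cd14 and is made by hepatocytes, had the order of Cd14, at 172, 62.7 and 156 FPKM in rat 1, rat 2 and rat 3. Irak4 had that order too, at 3.46, 2.95 and 3.36 FPKM. Ly96, the MD-2 subunit of the receptor, stood at 15.97, 7.86 and 7.77 FPKM and was also highest in rat 1. Tlr4 itself, below 1 FPKM, had the order of most markers at 0.142, 0.215 and 0.232 FPKM.

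**Figure D4:**
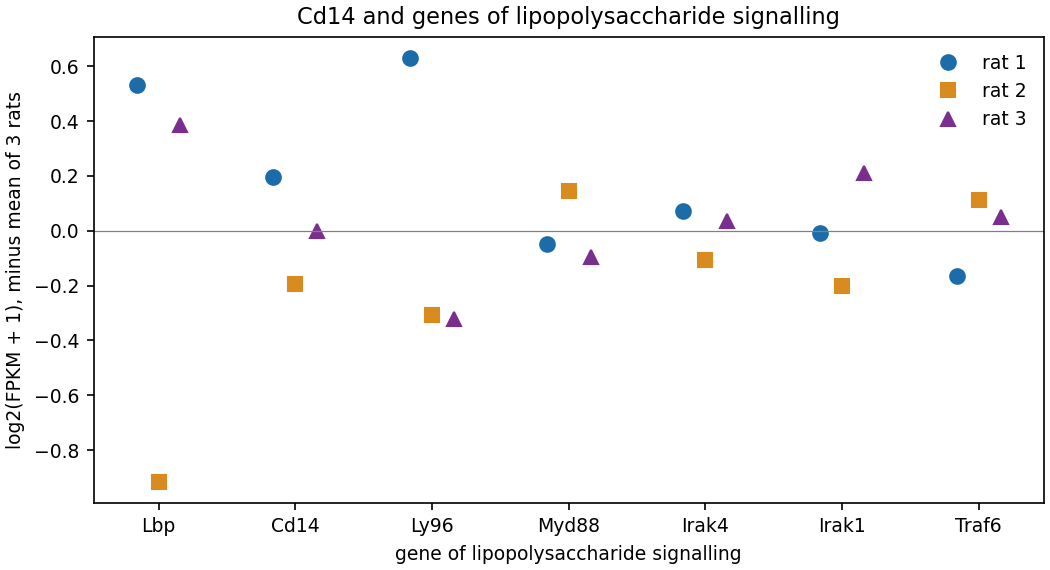
Level of each gene of lipopolysaccharide signalling that averaged 1 FPKM or more, shown for each rat, on log2(FPKM + 1) and set against the mean of the 3 rats. Lbp (172, 62.7 and 156 FPKM), Cd14 (19.7, 14.8 and 17.0 FPKM) and Irak4 (3.46, 2.95 and 3.36 FPKM) share an order, rat 1, rat 3, rat 2, in which rat 2 is lowest.

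Of 3 genes of the Csf1r axis besides Csf1r itself, 2 were highest in rat 3, against 33.5% of the background rows. Tyrobp, the adaptor DAP12 of myeloid receptors, had the order of Csf1r at 15.7, 18.9 and 22.7 FPKM in rat 1, rat 2 and rat 3. The ligand Csf1 stood at 2.68, 2.49 and 3.55 FPKM. The other ligand, Il34, went the other way, at 2.92 FPKM in rat 1 against 1.43 and 1.49 in rat 2 and rat 3.

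Of 11 phagocytic and scavenger receptors and their partners that averaged 1 FPKM or more, 9 were highest in rat 3, a count that takes in 4 of the described markers. Without those, 5 of 7 were highest in rat 3, against 33.5% of the background rows. Cd36, a fatty acid and lipoprotein scavenger receptor found on many cell types, stood at 6.52 FPKM in rat 3, against 1.77 in rat 1 and 1.95 in rat 2. Gas6, the bridging ligand of the Mertk and Axl receptors for dying cells, had 51.0 FPKM in rat 3, against 41.1 in rat 1 and 17.1 in rat 2.

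Around Cd163, the genes of haemoglobin clearance had no common order. Besides Cd163, 4 of 9 were highest in rat 3, against 33.5% of the background rows. Hp, the ligand that brings haemoglobin to Cd163, stood at 13720, 8048 and 16803 FPKM in rat 1, rat 2 and rat 3, and Hpx, which binds haem, at 5657, 2531 and 6959. Hmox1, which breaks haem down, was highest in rat 1, at 112, 60.1 and 48.3 FPKM. Blvra, a biliverdin reductase and the lowest of the list, stood at 10.6, 11.9 and 12.6 FPKM.

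With 3 libraries, likeness of profile is a loose measure. Among 3900 other rows averaging 10 FPKM or more, the 5 nearest to the markers' median profile, by Euclidean distance on centred log2(FPKM + 1), were Rps23, a ribosomal protein, Tapbp, Copz2, Fkbp11 and Tcirg1, a subunit of a proton pump, at distances of 0.03 to 0.04. Tapbp, which loads peptides onto class I molecules, stood at 11.6, 12.0 and 16.6 FPKM in rat 1, rat 2 and rat 3. The markers themselves lay at 0.02 to 0.52 from their median profile, and 153 of the 3900 rows lay nearer than the median marker.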

How the data were processed

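The deposited tables hold 1 FPKM value per row and library, scaled by the authors to transcript length and mapped fragments with confidence bounds, per the file headers. The submitters' processing notes list Cufflinks 2.1.1, TopHat2 2.0.9, Picard 1.137 and Bowtie2 2.1.0. No source used here gives the genome build, the annotation or the use of strand. FPKM carries no counts, so absolute depth is unknown, and the only interval on a value is the deposited confidence bounds.

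Members were matched by symbol, and FPKM values were used as deposited. Albumin, with the status HIDATA in 2 rats, was treated as missing. Differences were taken on log2(FPKM + 1), and counts over members as deposited stand beside the same counts over all rows averaging 1 FPKM or more. Counts under other scalings, pseudocounts or folds do not. No fit or p-value was used, since 0 members were in the naked mole rat tables and the rats form 1 group. The counting steps, in Python 3.11.15 with pandas 2.3.3, were checked on simulated data. Members and lists were chosen with earlier results of these data known. Every member was named. Genes of the pathway lists were named where highest or lowest of their list or over 2 times higher in 1 rat than in another. The rule was not applied to the cell type lists, where unnamed genes such as Mpeg1 and Col1a1 also passed 2 times. Csf1, the C1q chains and the blood cell, T cell and bile duct genes were chosen after their values were seen. Alternatives were other scalings, pseudocounts, folds and gene lists, and leaving out a rat. Promoters came from RefSeq (GRCr8), where 10 of 10 members matched.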

Additional observations from a re-analysis of the deposited data

How the results depend on the processing

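Rat 3 stayed the highest library for 5 to 7 of 8 markers under each scaling tried, with 5 when levels were set against hepatocyte markers, and for 87.5% to 100% against a single other rat. Shares over all rows were not taken under other scalings, pseudocounts or folds. How far the counts below differ from all rows is therefore unknown for those settings. The order of rat 1 and rat 2 depended on scaling. With the median ratio, 37.5% of markers were lowest in rat 1 and 37.5% kept the full order, and the median for rat 2 minus rat 1 was -0.044; with the upper quartile it was -0.030. Against hepatocyte markers it was 0.45, and for rat 3 minus rat 2 it was 0.094, with 0% of markers past 1.5-fold in that pair. With the median over those markers, added after the values were seen, 62.5% were past 1.5-fold in rat 3 over rat 1. Markers past 1.5-fold in rat 3 over rat 1 made up 50% with a pseudocount of 0.1 or 0; at 2-fold they made up 12.5%, and 0% in rat 3 over rat 2. The longer macrophage list, with values as deposited, takes in the 8 measured markers. In it 42.9% had the full order, against 19.5% of the background rows, and markers made up 6 of the 9 genes with that order. In its genes that are not markers, added after the values were seen, 23.1% had the full order, near that background share. Of these genes 38.5% were lowest in rat 1, against 48.5% of the background rows. Past 1.5-fold in rat 3 over rat 1 were 15.4%, against 3.06%. The median for rat 2 minus rat 1 was -0.017, against 0.11. The causes were not tested. No paired analysis was possible because the labels give nothing that pairs the libraries, and no test was run. The planned comparison between species was not run because the members are in the rat tables only. Absolute depth is unknown.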

Other observations

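Of 11 cytokines and chemokines that activated macrophages make, 5 reached a mean of 1 FPKM. Of these 5, 3 were highest in rat 3, against 33.5% of the background rows. Cxcl1, a neutrophil attractant that hepatocytes also make, was the most abundant at 11.1, 6.80 and 8.86 FPKM in rat 1, rat 2 and rat 3. Il6, on chromosome 4, was listed at 0 in each rat, Cxcl2 and Il10 in 1 rat each, and Tnf was at 0.297, 0.0691 and 0.292 FPKM. Ccl4 stood at 0.458, 2.85 and 0.920 FPKM, Ccl3 at 0.257, 0.359 and 1.10 and Cxcl10 at 0.779, 1.09 and 1.89. Of the inflammatory enzymes, Ptgs2, on chromosome 13, was listed at 0 in each rat and Nos2 stayed under 0.1 FPKM. Arg1, a urea cycle enzyme that hepatocytes make in quantity and a marker of activated macrophages in other tissues, stood at 1660, 2054 and 1854 FPKM.

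Of all the lists, 4 genes had a row in the naked mole rat tables: HBB, ALAS2, FTH1 and TNFAIP3. TNFAIP3, an inhibitor of NF-kappaB signalling and the only gene of the inflammatory lists among them, stood at 3.66, 3.47 and 3.42 FPKM (3.52 ± 0.127, SD, n = 3) in naked mole rat and has no row in the rat tables used here.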
